A study of Mus musculus with 12 samples.

Results

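The genes of the TGF-β receptor and Smad pathway were followed by ChIP-seq in microglia of WT and *Cx3cr1*-KO mice. The members were 10 genes: *Tgfb1* (the ligand), *Nrros* (a partner that holds latent TGF-β on microglia), *Tgfbr1* and *Tgfbr2* (the signaling receptors), *Smad2* and *Smad3* (receptor-activated Smads), *Smad4* (the common Smad), *Smad7* (the inhibitory Smad), and *Ski* and *Skil* (corepressors). Every peak that the deposited tables annotate to one of these genes was taken, which gave 171 of 26706 Rpb2 peaks and 123 of 55862 H3K27Ac peaks, and all 10 genes had peaks of both marks. Rpb2 is a subunit of RNA polymerase II and marks where the polymerase sits on DNA. H3K27Ac is an acetylated histone found at active promoters and enhancers.

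TGF-β is secreted in a latent complex and must be released before it can bind its receptors. The active dimer brings Tgfbr2 and Tgfbr1 together, Tgfbr1 phosphorylates Smad2 and Smad3, and these enter the nucleus with Smad4 to regulate target genes, while Smad7 acts on the receptors and Ski and Skil act on the Smads in the nucleus. In the brain, TGF-β signaling maintains the identity of mature microglia, and microglial genes carry enhancers bound by PU.1 together with Smads.

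Microglia came from 2-mo-old C57BL/6J mice, either *Cx3cr1*+/+ (WT) or homozygous for an allele in which *eGFP* disrupts *Cx3cr1* (*Cx3cr1*eGFP/eGFP, KO). WT and KO were littermates of heterozygous crosses, no mouse was treated, and *Cx3cr1* was disrupted in every cell of the KO animals rather than in microglia alone. Cells were stained for CD11b and CD45, fixed in paraformaldehyde and sorted. Each library was a pool of 3 mice of the same sex, and 4 input samples of the 12 in the series were not used here. By the labels there was 1 female and 1 male pool per genotype and mark, so that each comparison had n = 2 pools against 2. The p-values therefore set a genotype difference against the spread between these pools, estimated with the help of all peaks or genes. As the 2 pools of a genotype differ in sex label, that spread can include differences between the sexes. In a pool, fewer cells carrying a mark and less of the mark per cell cannot be told apart.

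Among the 4 Rpb2 libraries the totals ran from 11662185 to 44332626 reads, of which 11.2% to 15.1% lay in peaks, with the KO female library the deepest. The H3K27Ac libraries held 10395804 to 21134403 reads, with 61.1% to 65.3% in peaks in 3 of them and 15.9% in the WT female library. The Rpb2 library labelled WT female held 136 reads in peaks of Y-linked genes. The WT male, KO male and KO female Rpb2 libraries held 214, 266 and 0. The library labelled WT female thus goes against its sex label, and sex may be unbalanced between the genotypes for Rpb2. The part of sex in the results was not tested. Libraries are named here by their labels. Genes that mark microglia had peaks of both marks for 8 of 8 genes, with summed Rpb2 levels of 8302 to 8670 counts per 1000000 reads in peaks (CPM). Rpb2 peaks were found for 0 of 4 neuronal genes, 0 of 4 genes of other leukocytes, 1 of 4 astrocyte genes, 2 of 4 oligodendrocyte genes and 2 of 4 endothelial genes. H3K27Ac peaks were found for 4 of 4 genes each of neurons, oligodendrocytes and endothelial cells and for 2 of 4 each of astrocytes and other leukocytes. Their summed H3K27Ac level was 19.7 to 62.9 CPM for the neuronal genes, with the WT female library highest, and up to 541 CPM for the other lists, against 3078 to 5297 CPM for the microglial genes; their part in the results was not tested. *Cx3cr1*, the targeted gene, had 2759, 2351, 2124 and 1893 CPM of Rpb2 in the WT female, WT male, KO female and KO male libraries, all from peaks that can lie outside the disrupted part, and did not pass the test (log2 fold change -0.35, adjusted p = 0.121, edgeR quasi-likelihood test).

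The sequences of the sites on which the results below turn are shown here, from RefSeq on GRCm38.p6, whose coordinates are those of mm10. For the receptors they are the promoter windows, which run from 250 bases before to 50 bases after the gene start, an Rpb2 peak inside an acetylated domain upstream of *Tgfbr1*, the middle 300 bases of the highest Rpb2 peak of *Tgfbr1*, which lies past the end of the gene, and the highest intronic Rpb2 peak of *Tgfbr2*. For *Nrros* the Rpb2 peak at the gene start is shown. Each is written 5′ to 3′ on the strand of the gene. Capitals mark GAGGAA, the core bound by PU.1, and CAGAC, the box bound by Smads, on either strand.
*Tgfbr1* promoter, chr4:47352972-47353271, plus strand: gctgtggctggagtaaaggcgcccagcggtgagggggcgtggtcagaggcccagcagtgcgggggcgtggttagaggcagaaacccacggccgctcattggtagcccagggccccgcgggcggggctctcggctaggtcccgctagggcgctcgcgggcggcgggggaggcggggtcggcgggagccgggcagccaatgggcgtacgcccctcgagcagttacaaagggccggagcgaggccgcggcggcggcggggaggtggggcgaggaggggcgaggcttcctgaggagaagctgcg
*Tgfbr1* upstream Rpb2 peak, chr4:47319575-47319870, plus strand: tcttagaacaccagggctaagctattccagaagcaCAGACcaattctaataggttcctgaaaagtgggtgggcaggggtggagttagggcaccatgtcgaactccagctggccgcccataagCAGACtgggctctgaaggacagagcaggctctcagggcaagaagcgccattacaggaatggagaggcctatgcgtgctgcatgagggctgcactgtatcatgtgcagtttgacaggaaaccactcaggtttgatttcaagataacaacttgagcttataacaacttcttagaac
*Tgfbr1* Rpb2 peak past the gene end, chr4:47416871-47417170, plus strand: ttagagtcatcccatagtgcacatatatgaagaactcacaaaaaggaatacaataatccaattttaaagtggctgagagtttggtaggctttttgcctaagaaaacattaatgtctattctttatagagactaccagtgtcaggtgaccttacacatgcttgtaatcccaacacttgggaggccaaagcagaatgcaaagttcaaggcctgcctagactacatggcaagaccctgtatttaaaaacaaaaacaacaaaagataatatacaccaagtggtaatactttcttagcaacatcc
*Tgfbr2* promoter, chr9:116175314-116175613, minus strand: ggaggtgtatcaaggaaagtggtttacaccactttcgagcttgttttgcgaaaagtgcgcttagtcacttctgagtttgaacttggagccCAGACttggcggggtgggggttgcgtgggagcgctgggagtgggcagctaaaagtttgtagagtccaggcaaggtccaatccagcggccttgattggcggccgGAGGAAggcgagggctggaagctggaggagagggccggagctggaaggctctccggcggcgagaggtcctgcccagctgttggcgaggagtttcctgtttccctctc
*Tgfbr2* intronic Rpb2 peak, chr9:116145321-116145615, minus strand: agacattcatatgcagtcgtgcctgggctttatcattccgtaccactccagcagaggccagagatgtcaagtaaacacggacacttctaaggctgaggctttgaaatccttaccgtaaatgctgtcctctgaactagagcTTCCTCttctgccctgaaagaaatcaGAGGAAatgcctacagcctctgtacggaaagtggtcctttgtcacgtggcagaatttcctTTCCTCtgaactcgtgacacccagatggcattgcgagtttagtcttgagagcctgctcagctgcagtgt
*Nrros* Rpb2 peak at the gene start, chr16:32165325-32165533, minus strand: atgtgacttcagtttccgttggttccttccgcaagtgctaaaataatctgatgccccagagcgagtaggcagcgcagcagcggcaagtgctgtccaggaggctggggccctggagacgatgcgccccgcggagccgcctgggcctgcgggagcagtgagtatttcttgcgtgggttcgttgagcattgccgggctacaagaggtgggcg

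The promoter at the start of *Tgfbr1* held neither motif, but that at a second start inside the gene (sequence not shown) held 1 of each. The promoter of *Tgfbr2* also held 1 of each. The intronic peak of *Tgfbr2* held GAGGAA 3 times, and the upstream peak of *Tgfbr1* held CAGAC 2 times. Promoter windows on chromosome 18, where *Smad2*, *Smad4* and *Smad7* lie, were left out of the search, and *Skil* had no window. RefSeq promoter windows were searched for the other 6 of the 10 members and gave 7 windows, as *Tgfbr1* had the second start. Of these, 2 held GAGGAA and 3 held CAGAC, against 28.3% and 49.6% of all 32851 promoter windows. In windows of 300 bases at the centers of all Rpb2 peaks the shares were 32.8% and 55.7%, so that a match of so short a motif is common. The Smad palindrome GTCTAGAC was in none of the printed sequences and in 0.213% of promoter windows. These are matches of letters, not measured binding sites.

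*Tgfbr1*, the type I receptor, is at chr4:47353222-47414931 and had the most reads of the 10 genes in Rpb2. Its 56 Rpb2 peaks placed it at rank 3 of 10206 genes in number of peaks, and their summed level placed it at rank 4. The sum was 2163 and 2015 CPM in the WT female and male libraries and 2213 and 2317 CPM in the KO female and male libraries. The KO pools lay above the WT pools, but the ranges were close and the log2 fold change was 0.12 ± 0.07 (SE, 95% interval -0.04 to 0.27, adjusted p = 0.596, edgeR quasi-likelihood test over 10206 genes). Without the library labelled WT female the sum again did not pass.

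Most Rpb2 peak reads of *Tgfbr1* lay outside the 2 peaks near its start. Such shares grow with the number and width of peaks, and 43 of the 56 peaks lay in the rest of the gene. The level per kb was not compared between positions. Peaks within 1000 bp of the gene start held 6.63% of its Rpb2 peak reads on average over the 4 libraries, peaks in the rest of the gene 58.1%, peaks upstream 12.9% and 4 peaks past the gene end 22.4%. The share past the end was 20.6% to 23.3% across libraries. The highest Rpb2 peak of the gene was one of these (chr4:47416787-47417253), 2.09 kb past the annotated end, with 320, 297, 1402 and 623 reads in the WT female, WT male, KO female and KO male libraries, or 249, 196, 255 and 243 CPM. The genotypes overlapped there (log2 fold change 0.17 ± 0.21, adjusted p = 0.773). The peak at the start (chr4:47352766-47352983), which is narrower than the one past the end, had 145, 122, 77.3 and 144 CPM. The peak that the tables place nearest to a start (chr4:47385907-47386230) is at a second, internal start 32.8 kb into the gene and had 17.9, 29.0, 24.5 and 34.3 CPM.

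H3K27Ac at *Tgfbr1* had a different distribution. Its 29 peaks covered 69.3 kb, and 71.8% of their reads lay upstream of the gene, 23.2% in the peak at the start and 4.97% in the rest of the gene. The upstream reads came mainly from one domain of 26.8 kb (chr4:47299866-47326670), rank 32 in width among all H3K27Ac peaks, which begins inside the neighboring gene *Col15a1* and holds 6 Rpb2 peaks. It was assigned to *Tgfbr1* by the distance to the gene start, and its target was not measured. The strongest Rpb2 peak in it, the upstream sequence shown above, had 88.6 and 132 CPM in WT and 110 and 117 CPM in KO (log2 fold change 0.04 ± 0.28, adjusted p = 0.968). Of the 56 Rpb2 peaks of *Tgfbr1*, 29 lay in an H3K27Ac peak (51.8%), against 76.6% of all Rpb2 peaks. The summed H3K27Ac level was 830 and 1347 CPM in WT and 1210 and 1160 CPM in KO, so that the WT pools lay on both sides of the KO pools (log2 fold change 0.12 ± 0.38, adjusted p = 0.999). Its sign depended on the WT female library, which had the low share of reads in peaks. Without that library the value was -0.18 (adjusted p = 0.0347), and without the WT male library 0.51 (adjusted p = 3.37e-16).

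**Figure D1:**
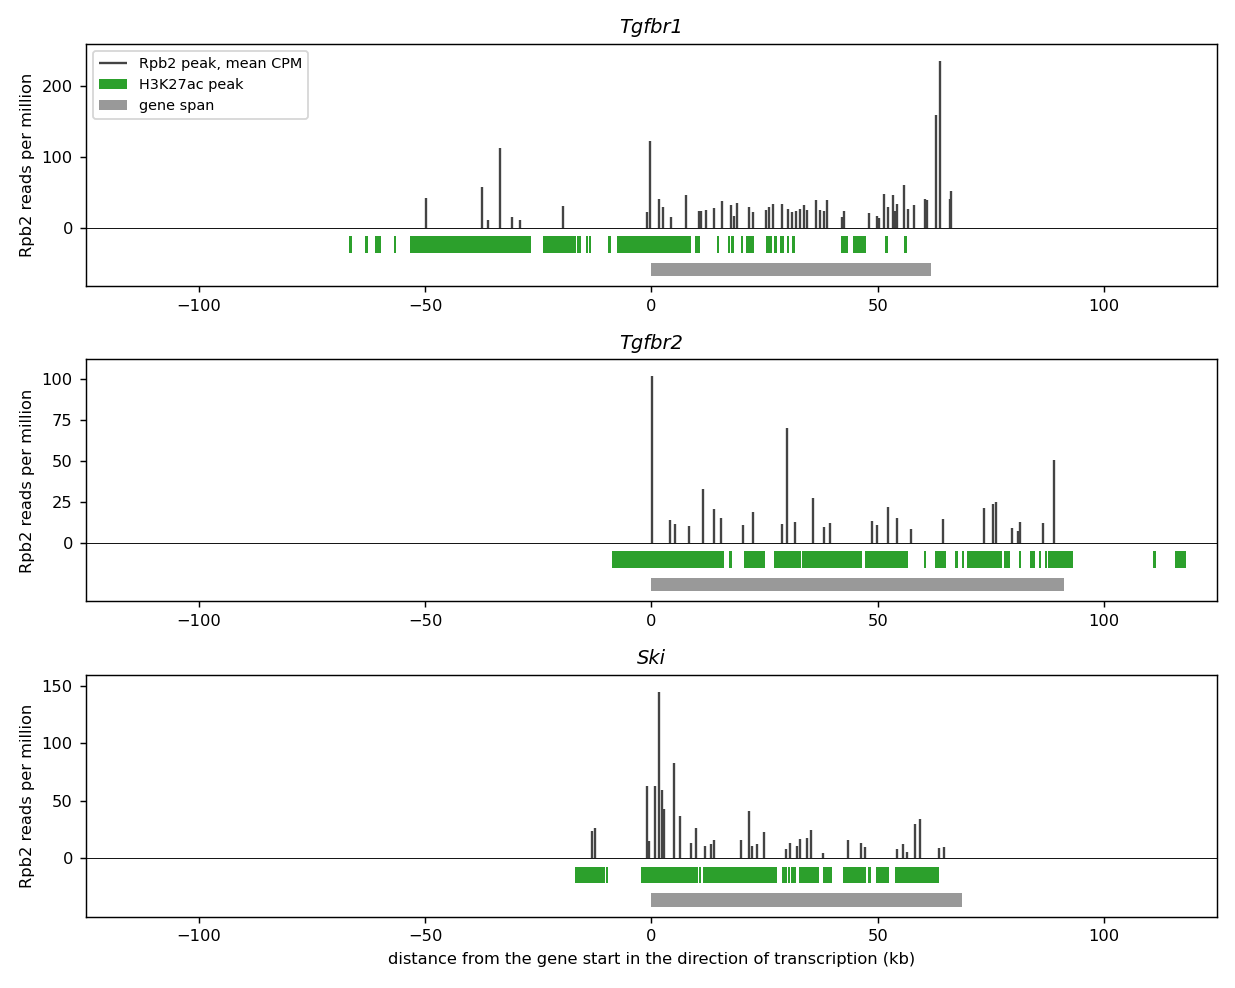
Peaks of *Tgfbr1*, *Tgfbr2* and *Ski* by distance from the gene start in kb (x axis, in the direction of transcription). Vertical lines give the mean Rpb2 level of each peak over 4 libraries in CPM, green bars the H3K27Ac peaks and gray bars the gene; the highest *Tgfbr1* peak stands 2.09 kb past the gene end, and the widest green bar of *Tgfbr1*, 26.8 kb, lies upstream.

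*Tgfbr2*, the type II receptor that binds the ligand, is at chr9:116084293-116175360 on the minus strand. Its 29 Rpb2 peaks summed to 488 and 687 CPM in the WT female and male libraries and 650 and 674 CPM in the KO libraries, with the library labelled WT female alone at the low end. The genotypes overlapped (log2 fold change 0.17 ± 0.14, 95% interval -0.13 to 0.46, adjusted p = 0.707), and without the library labelled WT female the value was -0.08. The peak at the start (chr9:116175165-116175424) had the highest level of the gene, with 75.4, 155, 91.3 and 84.6 CPM, followed by the intronic peak shown above, with 67.6, 61.2, 83.1 and 67.1 CPM. Peaks within 1000 bp of the start held 16.1% of its Rpb2 reads and peaks in the rest of the gene 83.9%.

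Acetylation of *Tgfbr2* was among the broadest of the series. Its 20 H3K27Ac peaks covered 82.8 kb, rank 17 of 16938 genes, and the peak over the start (chr9:116159297-116184177) was 24.9 kb wide. That peak had 412 and 511 CPM in WT and 530 and 542 CPM in KO, and no KO pool fell within the WT range, but the difference did not pass (log2 fold change 0.22 ± 0.36, adjusted p = 0.984). The summed level was 1045, 1306, 1262 and 1335 CPM in the WT female, WT male, KO female and KO male libraries (log2 fold change 0.14 ± 0.37, adjusted p = 0.999). *Tgfbr2* lies 3.87 Mb from the targeted *Cx3cr1* locus on the same chromosome, and *Smad3* lies 56.3 Mb from it, so that for *Tgfbr2* the genotype at *Cx3cr1* and that of the linked region cannot be told apart.

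The ligand and its partner were smaller loci. *Tgfb1* (chr7:25687002-25705077) had 5 Rpb2 peaks, which summed to 149, 179, 138 and 173 CPM in the WT female, WT male, KO female and KO male libraries, with the genotypes overlapping (log2 fold change -0.08 ± 0.23, adjusted p = 0.935). Its highest Rpb2 peak was also the one nearest to the start (chr7:25687251-25687457) and had 37.3, 71.8, 47.5 and 54.2 CPM. A single H3K27Ac peak of 4.90 kb (chr7:25685967-25690869) had 124 and 140 CPM in WT and 158 and 154 CPM in KO. The KO pools were higher there, and the difference did not pass (log2 fold change 0.24 ± 0.30, adjusted p = 0.948).

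*Nrros* (chr16:32142785-32165594, minus strand) had most of its Rpb2 peak reads near the start. The peak there, shown above, had 180, 202, 176 and 184 CPM, a narrow range in which the genotypes overlapped (log2 fold change -0.09 ± 0.21, adjusted p = 0.896). Peaks within 1000 bp of the start held 72.4% of its Rpb2 reads, the highest share among the members with more than 1 Rpb2 peak. The sum over its 6 peaks was 267 and 276 CPM in WT and 287 and 347 CPM in KO. The KO pools lay above the WT pools, and the difference did not pass (log2 fold change 0.22 ± 0.17, adjusted p = 0.679). In H3K27Ac the sum was 100 and 180 CPM in WT and 153 and 181 CPM in KO, with the WT female library low (log2 fold change 0.25 ± 0.28, adjusted p = 0.972). Most of this was in the peak at the start (chr16:32162791-32168049), with 79.1, 133, 123 and 140 CPM.

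**Figure D2:**
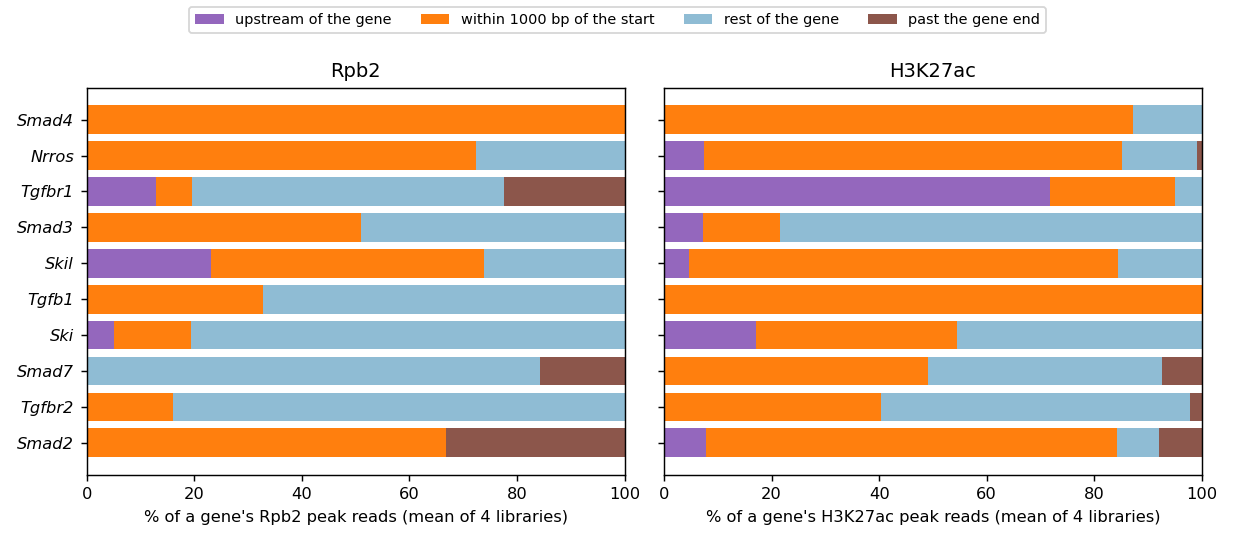
Share of each gene's peak reads by position (x axis, %, mean of the 4 libraries of a mark), for Rpb2 (left) and H3K27Ac (right). *Tgfbr1* had 22.4% of its Rpb2 reads past the gene end and 71.8% of its H3K27Ac reads upstream, and *Nrros* had 72.4% of its Rpb2 reads at the start.

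The receptor-activated Smads differed from each other in the number of peaks and in level. *Smad3* (chr9:63646767-63757994, minus strand) had 10 Rpb2 peaks that summed to 330, 360, 272 and 359 CPM in the WT female, WT male, KO female and KO male libraries (log2 fold change -0.13 ± 0.17, adjusted p = 0.820), with 51.0% of the reads near the start. The peak at the start (chr9:63757859-63758210) was its highest, with 84.0, 132, 68.6 and 88.5 CPM. All 10 lay in H3K27Ac peaks. *Smad3* had 27 H3K27Ac peaks over 52.2 kb, and its highest was an intronic domain of 14.5 kb (chr9:63728631-63743149), 22.1 kb into the gene, with 186, 284, 244 and 256 CPM (log2 fold change 0.08 ± 0.32, adjusted p = 0.99998). The H3K27Ac peak nearest to the start (chr9:63754199-63760240) had 103, 75.6, 102 and 82.9 CPM, and the sum over all peaks 584, 676, 647 and 661 CPM (log2 fold change 0.05 ± 0.32, adjusted p = 0.999).

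*Smad2* and *Smad4* had few peaks and low sums of both marks. *Smad2* had 3 Rpb2 peaks, of which the 1 near the start had 31.1 and 32.9 CPM in WT and 16.9 and 19.1 CPM in KO. These pools did not overlap, and the difference did not pass (log2 fold change -0.83 ± 0.52, adjusted p = 0.539). The other 2 lay 3.07 and 8.74 kb past the gene end and were called in KO, so that the sum over all 3 was level, at 39.7 and 35.7 CPM in WT and 33.9 and 39.1 CPM in KO (log2 fold change -0.05 ± 0.44, adjusted p = 0.989). Its 4 H3K27Ac peaks summed to 37.3 and 26.8 CPM in WT and 21.2 and 18.1 CPM in KO (log2 fold change -0.70 ± 0.35, 95% interval -1.45 to 0.04, adjusted p = 0.809). Part of that came from a peak 141 kb from the start with 44 reads in the library of WT females and 0 elsewhere, and the peak at the start had 19.5, 20.3, 19.5 and 15.2 CPM in the WT female, WT male, KO female and KO male libraries.

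*Smad4* had 1 Rpb2 peak, at the start, with 35.8 and 73.7 CPM in WT and 41.8 and 64.4 CPM in KO, where both KO pools lay between the WT pools (log2 fold change -0.06 ± 0.42, adjusted p = 0.968). The H3K27Ac peak at the same start was the member peak with the lowest p of its mark. It had 100 and 141 reads in the libraries of WT and 149 and 138 in those of KO, female first, which is 28.3 and 22.5 CPM in WT and 11.3 and 11.1 CPM in KO. Both KO pools were below both WT pools, but the difference did not pass (log2 fold change -1.18 ± 0.41, adjusted p = 0.779 over 55798 peaks, edgeR quasi-likelihood test). With DESeq2 in place of edgeR the adjusted p was 0.0387. The sum over both H3K27Ac peaks of *Smad4* was 26.997, 23.4, 17.6 and 13.2 CPM, scaled over gene sums rather than over peaks (log2 fold change -0.71 ± 0.42, adjusted p = 0.926).

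*Smad7*, whose product inhibits the receptors and is itself a target of the pathway, had 16 Rpb2 peaks and none within 1000 bp of its start. They summed to 352 and 218 CPM in WT and 371 and 274 CPM in KO, with the genotypes overlapping (log2 fold change 0.19 ± 0.20, adjusted p = 0.787). The highest was 4.05 kb from the start, with 126, 117, 121 and 62.4 CPM, and the nearest was 2.49 kb from it, with 38.1, 7.24, 22.2 and 23.8 CPM. The H3K27Ac peak over the start had 199, 175, 213 and 184 CPM in the WT female, WT male, KO female and KO male libraries (log2 fold change 0.09 ± 0.31, adjusted p = 0.99998), and the 6 H3K27Ac peaks summed to 407, 336, 422 and 410 CPM (log2 fold change 0.16 ± 0.29, adjusted p = 0.994).

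The corepressor *Ski* (chr4:155154075-155222592, minus strand) had high sums of both marks. Its 37 Rpb2 peaks summed to 947, 985, 1011 and 1005 CPM in the WT female, WT male, KO female and KO male libraries. Both KO pools were above both WT pools by a small margin (log2 fold change 0.06 ± 0.10, 95% interval -0.15 to 0.27, adjusted p = 0.873). The highest peak (chr4:155220754-155221124) was 1.65 kb into the gene, with 138, 194, 149 and 99.9 CPM, and the peak nearest to the tables' start (chr4:155222952-155223172) had 14.8, 13.8, 18.4 and 12.9 CPM. Of the 37, 35 lay in H3K27Ac peaks (94.6%). The H3K27Ac sum over 17 peaks and 64.3 kb was 912, 1149, 1266 and 1152 CPM (log2 fold change 0.23 ± 0.36, adjusted p = 0.992). The highest H3K27Ac peak (chr4:155212309-155222949) had 296 and 385 CPM in WT and 445 and 407 CPM in KO, and the peak nearest to the start (chr4:155223015-155224859) 28.8, 44.8, 34.7 and 33.2 CPM.

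*Skil*, the paralog of *Ski*, is at chr3:31095058-31122577 and had the narrowest range of Rpb2 sums in proportion to its level. Its 8 Rpb2 peaks summed to 248, 238, 236 and 240 CPM (log2 fold change -0.03 ± 0.18, 95% interval -0.41 to 0.35, adjusted p = 0.982), and all 8 lay in H3K27Ac peaks. The highest (chr3:31095685-31095948) had 85.5 and 115 CPM in WT and 78.9 and 78.0 CPM in KO (log2 fold change -0.35 ± 0.29, adjusted p = 0.642), and the one nearest to the start (chr3:31094982-31095185) 33.4, 38.2, 25.3 and 34.7 CPM. One H3K27Ac peak of 14.044 kb (chr3:31087546-31101589) covered the start, with 210, 217, 207 and 196 CPM (log2 fold change -0.09 ± 0.31, adjusted p = 0.99998). The H3K27Ac sum was 251, 279, 262 and 251 CPM (log2 fold change -0.05 ± 0.27, adjusted p = 0.999).

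Sums grow with the length covered by peaks, so the genes were ordered by CPM per kb of peak, a measure that still depends on how wide each peak was called. On this scale *Smad4* had the highest mean Rpb2 level, 239 CPM per kb from 1 peak of 0.226 kb, followed by *Nrros* with 160, *Tgfbr1* with 119, *Smad3* with 117, *Skil* with 102, *Tgfb1* with 93.4, *Ski* with 83.8, *Smad7* with 70.7, *Tgfbr2* with 70.5 and *Smad2* with 41.0. The median of all genes was 123, so the high Rpb2 sums of *Tgfbr1* and *Ski* went with 18.3 and 11.8 kb of peaks (rank 3 and 17 of 10206 genes) and not with a high level per kb. Of 9 neighboring pairs in this order, 7 had overlapping ranges over the 4 libraries; *Nrros* stood clear of *Tgfbr1*, and *Tgfbr2* of *Smad2*. For H3K27Ac the order per kb was *Tgfb1* with 29.4, *Ski* with 17.4, *Tgfbr1* with 16.4, *Tgfbr2* with 14.9, *Smad7* with 12.5, *Smad3* and *Nrros* with 12.3 each, *Skil* with 11.1, *Smad4* with 6.56 and *Smad2* with 5.57, against a median of 7.32 for all genes. Again 7 of 9 neighboring pairs overlapped, and *Tgfb1* stood clear of *Ski* and *Skil* of *Smad4*.

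**Figure D3:**
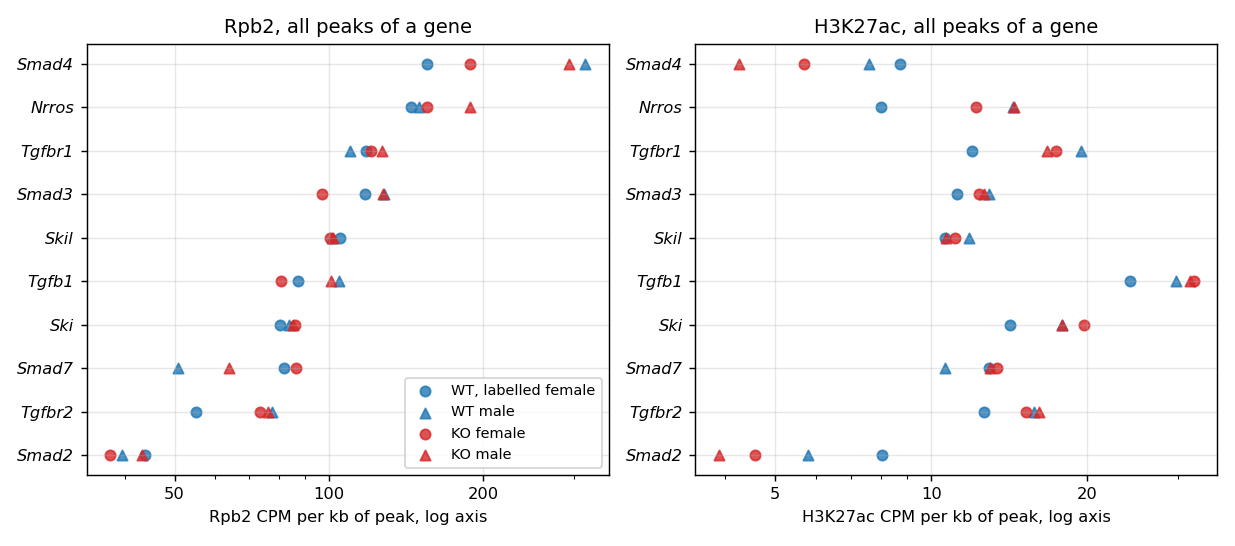
Rpb2 (left) and H3K27Ac (right) CPM per kb of peak in each library (x axis, log scale) for the 10 genes. Circles are libraries labelled female and triangles male, blue is WT and red is KO; *Smad2* has the lowest mean in both marks and the genotypes are apart for 3 genes in Rpb2 and for 5 in H3K27Ac.

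Broad acetylated domains were shared by several members. H3K27Ac peaks wider than 10 kb made up 9 of the 123 member peaks (7.32%) and 603 of all tested peaks (1.08%). They were found at 6 of the 10 genes: 2 each at *Tgfbr1*, *Tgfbr2* and *Ski*, and 1 each at *Smad3*, *Skil* and *Smad7*. Each held 3 to 8 Rpb2 peaks. *Tgfb1*, *Nrros*, *Smad2* and *Smad4* had none. Among all 16938 genes, 526 had an H3K27Ac peak wider than 10 kb.

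The comparison between genotypes asked whether the polymerase or acetylation at these genes differs where *Cx3cr1* is lost. With edgeR's quasi-likelihood test on all 4 libraries, no member passed the adjusted threshold of 0.05 in either mark, either as a peak or as a gene sum. For Rpb2 gene sums, 0 of the 10 members passed and 0 of 10206 genes did (0%). At an unadjusted p under 0.05 there were 0 members, against 1101 genes (10.8%), and with DESeq2 0 members and 28 genes (0.274%) passed the adjusted threshold. The fitted log2 fold changes ran from -0.13 for *Smad3* to 0.22 for *Nrros*. The pools did not overlap for 3 members that were higher in KO (*Nrros*, *Ski* and *Tgfbr1*; 22.4% of all genes) and for 0 that were lower (19.7% of all genes). In that order, these sums held 4, 22 and 24 peaks called in KO only, against 0, 7 and 17 called in WT only. Over peaks called in both genotypes their log2 fold changes were 0.12, 0.0031 and 0.22. The part of the peak lists in the sums was not tested. For H3K27Ac gene sums, 0 members and 0 of 16938 genes passed (0%), and 0 members had an unadjusted p under 0.05, against 1098 genes (6.48%). DESeq2 called 0 members and 213 genes (1.26%). The log2 fold changes ran from -0.71 for *Smad4* to 0.25 for *Nrros*. The pools did not overlap for *Tgfb1*, *Smad7* and *Ski*, which were higher in KO (13.4% of all genes), and for *Smad2* and *Smad4*, which were lower (14.2% of all genes). Without the WT female H3K27Ac library, 2 members passed (*Smad7* higher and *Tgfbr1* lower), with 537 of 14708 genes (3.65%). Without the WT male library, 3807 of 16900 genes passed (22.5%), and 6 members were among them, with *Tgfbr1*, *Tgfbr2*, *Ski*, *Nrros* and *Tgfb1* higher and *Smad2* lower. The only WT library left there was the one with the low share of reads in peaks.

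**Figure D4:**
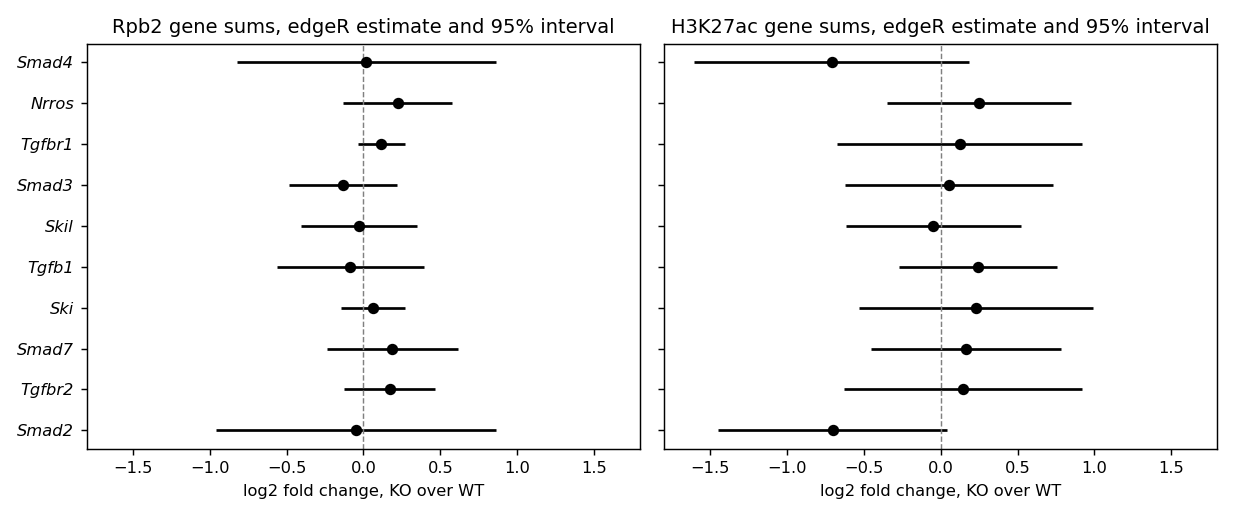
Log2 fold changes of KO over WT (x axis) for the gene sums of Rpb2 (left) and H3K27Ac (right). Points are edgeR estimates from 2 pools against 2 and lines their 95% intervals, and every interval includes 0; they are narrowest for Rpb2 at *Tgfbr1*, from -0.04 to 0.27.

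Among single Rpb2 peaks, 0 of 171 member peaks passed the adjusted threshold (smallest adjusted p = 0.198), against 2 of 26706 (0.00749%), and DESeq2 called 5 member peaks (2.92%; 3.83% of all peaks), at *Tgfbr1*, *Tgfbr2* and *Ski*. The likelihood ratio test of edgeR called 4 (2.34%; 3.46% of all peaks). At an unadjusted p under 0.05, 9 member peaks were higher in KO (5.26% of member peaks; 6.12% of all peaks) and 4 were lower (2.34%; 6.06% of all peaks). The pools did not overlap at 49 member peaks that were higher in KO (28.7%; 25.7% of all peaks) and 30 that were lower (17.5%; 21.7% of all peaks). The median log2 fold change was 0.17 over the member peaks and 0.04 over all peaks. Without the library labelled WT female, 12 member peaks passed the adjusted threshold (7.02%; 8.28% of all peaks). Without the WT male library 15 did (8.77%; 7.35% of all peaks), and without either KO library 0. These member shares were near those of all peaks. The direction followed the genotype in which a peak had been called. All 9 higher peaks were called in KO only and all 4 lower peaks in WT only, and the medians were 0.62 for the 99 member peaks called in KO only, -0.61 for the 33 called in WT only and -0.23 for the 39 called in both. Over all peaks the same medians were 0.51, -0.89 and -0.17. A peak called in one genotype tends by construction to be higher there. The deeper sequencing of the KO female library went with the larger KO list, and its part in these values was not tested.

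The 13 Rpb2 peaks with a low p lay at *Tgfbr2* (5), *Tgfbr1* (3), *Ski* (3) and *Smad7* (2), and each lay inside the gene or within 1000 bp of its end. In *Tgfbr2*, the intronic peak 79.7 kb from the start (chr9:116095519-116095830) had 3 and 0 reads in the WT libraries against 79 and 49 in those of KO (log2 fold change 3.87 ± 1.20, adjusted p = 0.241), and the one at 28.9 kb (chr9:116146288-116146603) had 0 and 5 WT reads against 51 and 87 KO reads (3.60 ± 1.16, adjusted p = 0.259). The peak at 48.8 kb (chr9:116126406-116126725) was also higher, with 12 and 6 reads against 100 and 59. Those at 64.4 kb (chr9:116110809-116111124; 28 and 39 reads against 40 and 10) and 38.2 kb (chr9:116137015-116137289; 18 and 27 against 24 and 5) were lower, by log2 fold changes of -2.05 and -2.28. Peaks of one gene thus went in both directions, and these reads are few beside its sum.

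In *Tgfbr1* the peak 17.6 kb from the start (chr4:47370645-47371023) had 12.4 and 18.4 CPM in WT and 34.9 and 64.0 CPM in KO (log2 fold change 1.66 ± 0.52, adjusted p = 0.251). The exonic peak at 53.8 kb (chr4:47406851-47407094) was higher by 1.43 ± 0.58 and the exonic peak at 49.7 kb (chr4:47402812-47403044) was lower, at -2.11 ± 0.82, with 42 and 31 WT reads against 12 and 27 KO reads. In *Ski*, the intronic peak 37.9 kb from the start (chr4:155184523-155184831) had 0 reads in both WT libraries and 64 and 21 in KO, at least 9.86-fold higher when WT is set to a floor of 3 reads over the group (adjusted p = 0.198). The peak at 56.4 kb (chr4:155166108-155166310) had 2 and 1 WT reads against 51 and 30 KO reads (3.22 ± 1.14, adjusted p = 0.287). The peak at 2.42 kb (chr4:155219981-155220364) was lower, with 104 and 56.6 CPM in WT and 38.2 and 37.8 CPM in KO (-1.08 ± 0.38, adjusted p = 0.292). The *Smad7* peaks, at 21.9 kb and 29.3 kb, had 1 and 5 against 119 and 20 reads (2.80 ± 1.06, adjusted p = 0.322) and 4 and 13 against 134 and 56 reads (1.96 ± 0.74, adjusted p = 0.325).

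**Figure D5:**
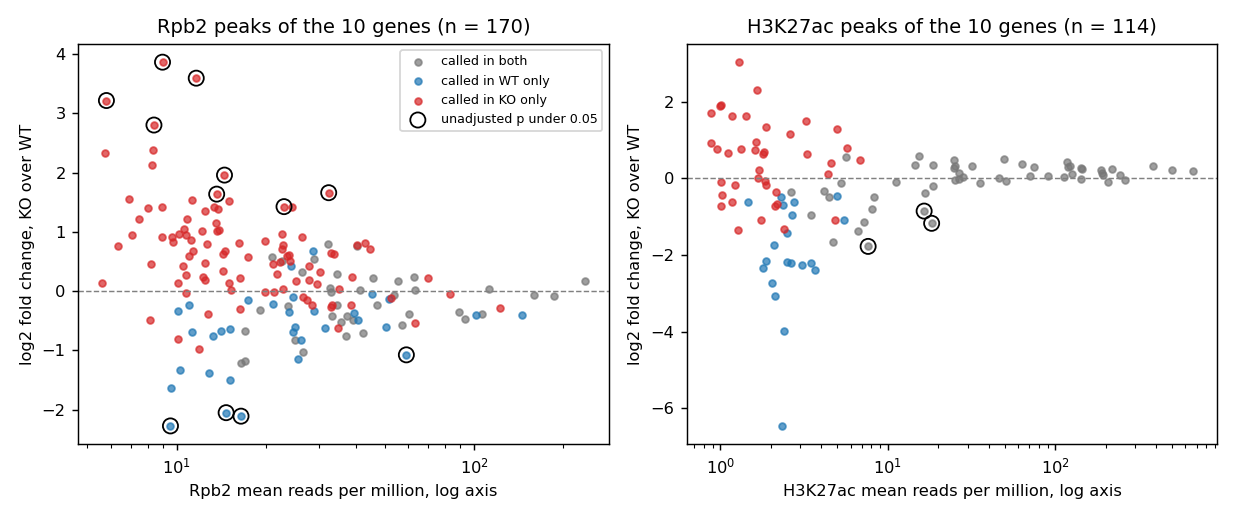
Log2 fold change of KO over WT (y axis) against mean CPM (x axis, log scale) for the Rpb2 (left) and H3K27Ac (right) peaks of the 10 genes with reads in both genotypes. Colors give the genotype in which a peak was called and rings an unadjusted p under 0.05; ringed Rpb2 peaks above 0 were all called in KO only and those below 0 in WT only.

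Among single H3K27Ac peaks, 0 of 123 member peaks passed (smallest adjusted p = 0.779), against 13 of 55798 (0.0233%), and DESeq2 called 1 (0.813%; 0.43% of all peaks), the *Smad4* peak at the start. Without the WT female library 3 member peaks passed (2.5%; 1.53% of all peaks), without the WT male library 13 (10.7%; 14.8% of all peaks), and without either KO library 0. At an unadjusted p under 0.05, 0 were higher in KO (1.35% of all peaks) and 4 were lower (3.25% of member peaks; 3.6% of all peaks). The pools did not overlap at 24 that were higher (19.5%; 14.3% of all peaks) and 18 that were lower (14.6%; 13% of all peaks). The median log2 fold change was 0.0036 over the member peaks and -0.21 over all peaks, which held many peaks called in WT only. Besides the *Smad4* and *Smad2* peaks given above, the low values were an intronic *Smad3* peak 73.3 kb from the start (chr9:63683823-63685636), with 23.7 and 18.9 CPM in WT and 14.6 and 8.83 CPM in KO (-0.86 ± 0.42, adjusted p = 0.811), and a peak at -60.4 kb from the *Tgfbr1* start, inside *Col15a1* (chr4:47292167-47293405), with 6.22 and 17.4 CPM in WT and 3.88 and 3.05 CPM in KO (-1.78 ± 0.75, adjusted p = 0.811).

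The list of other pathway genes held 58 names, in which *Ccn2* and *Ctgf* name the same gene. Of these names, 42 had an Rpb2 peak and 0 passed the adjusted threshold. At an unadjusted p under 0.05, 4 were higher and 4 lower in KO (19.0% of the 42, against 10.8% of all genes). The median log2 fold change over the 42 was -0.03. The 3 with the lowest p were *Runx3*, a transcription factor that partners Smads, with 1.53 and 6.37 CPM in WT and 27.2 and 24.2 CPM in KO (log2 fold change 2.65 ± 0.79, adjusted p = 0.190), *Tgfbrap1*, which binds the receptors, with 205 and 262 CPM against 150 and 148 CPM (-0.65 ± 0.21, adjusted p = 0.240), and the immediate-early target *Junb*, with 715 and 770 CPM against 861 and 1020 CPM (0.34 ± 0.11, adjusted p = 0.262). For H3K27Ac, 55 of the 58 had a peak and 0 passed, with 1 higher and 2 lower at an unadjusted p under 0.05 (5.45%, against 6.48% of all genes) and a median of 0.07. The lowest were the ligand *Tgfb3* (17.8 and 23.3 CPM in WT, 39.2 and 45.2 CPM in KO; 1.03 ± 0.31, adjusted p = 0.349), the cell cycle inhibitor *Cdkn2b* (-1.51 ± 0.67, adjusted p = 0.695) and the decoy receptor *Bambi* (-1.77 ± 0.81, adjusted p = 0.731).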

How the data were processed

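The tables hold counts that the authors deposited: raw reads per merged peak, with a normalization factor of 1 in the file headers. Per the methods, the authors aligned single-end reads of 51 nt with Bowtie 2 (mm10), discarded reads without a unique position, used HOMER to call peaks, retained those reproducible between pools and merged the WT and KO lists. The deposited H3K27Ac peaks nevertheless include some with reads in 1 library only, such as the *Smad2* peak 141 kb from its start. Versions are not given in the sources used here. Input libraries were not used here, so no peak was set against input.

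Counts per peak, and counts summed over the peaks annotated to a gene, were compared by the quasi-likelihood test of edgeR 4.0.16 under R 4.3.3 (genotype as the only term; glmQLFit, glmQLFTest; TMM factors, Benjamini-Hochberg adjustment over all peaks or genes that averaged 4 or more reads in either genotype). CPM are relative to reads in peaks times TMM factors. All peaks were tested because the members have peaks in introns and at a distance, whereas the study tested peaks within 1000 bp of a start. Peaks and genes were annotated by the nearest start, as deposited. Peaks were placed against the Ensembl gene spans. An overlap of 1 base counted as lying in an H3K27Ac peak. No peak ran past the end of any of 21 chromosomes of GRCm38.p6. Figures were drawn with matplotlib 3.10.9 in Python 3.11.15.

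The members and lists were chosen with earlier results of these data known. For each member and mark the gene sum, the highest peak, the peak nearest to a start and every peak with an unadjusted p under 0.05 were named; other pathway genes were named as the 3 with the lowest p. Alternatives were DESeq2 1.42.0, other scalings, filters and peak sets, the sex label as a block, and each pool left out. Each pool of one sex holds different animals, and sex was not used to pair them in the main test. On simulated data the steps recovered the direction of planted changes, and the H3K27Ac peak test made false calls above its nominal rate. Intervals cover 95%. Columns of per-sample values that were not used numbered 0.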

Additional observations from a re-analysis of the deposited data

Results flagged for a closer look

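The gene sums of some members moved in opposite directions between the 2 pools labelled female and the 2 labelled male. The difference, as the log2 ratio of KO over WT in the pools labelled female minus that in the pools labelled male, was 0.44 for Rpb2 at *Tgfbr2* (0.41 in female and -0.03 in male pools), -0.35 at *Smad2*, 0.37 at *Smad4* and -0.078 at *Skil*. For H3K27Ac it was 0.76 at *Tgfbr1* (0.54 in female and -0.22 in male pools), 0.18 at *Smad3* and 0.21 at *Skil*. With 1 pool per sex and genotype these differences were not tested. The Rpb2 library labelled WT female goes against its sex label by its Y-linked reads, and the H3K27Ac library of WT female had 15.9% of its reads in peaks against 61.1% to 65.3% in the others. The part of either in these differences was not tested. Groups of 2 pools are too small for a test of single outlying samples.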

How the results depend on the processing

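No gene sum of a member passed the adjusted threshold under the other scalings, tests, filters, peak sets or the sex block; leaving out a WT library of H3K27Ac gave calls. Directions of uncalled values were not all stable: among 782 values of single genes and peaks under the alternatives, 66 changed sign. Of the others, 679 kept their sign and stayed uncalled, and 37 passed the threshold in the same direction. The cause was not tested.

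No sample carries a pair number; with the sex label as a replicate block, the calls were 4 Rpb2 peaks, 43 Rpb2 genes, 12 H3K27Ac peaks and 140 H3K27Ac genes, and 0 members in each, and the *Smad4* Rpb2 peak was 0.00765. Over all Rpb2 peaks the calls were 15 with loess offsets, 1022 with DESeq2 (5 members), 924 with the likelihood ratio test (4 members), 272 with the newer quasi-likelihood method, 30 with at least 10 reads in every library, 0 near a start and 8 for peaks called in both genotypes. Member peaks with an unadjusted p under 0.05 were 20 with total reads, 22 with DESeq2, 21 with the newer method, 0 near a start and 3 for peaks called in both. Rpb2 gene calls were 28 with total reads, 5 with loess, 28 with DESeq2, 164 with the likelihood ratio test, 40 with the newer method, 6 with at least 10 reads and 8 for peaks called in both. H3K27Ac peak calls were 0 with total reads, with the newer method, near a start and for peaks called in both, 240 with DESeq2 (1 member) and 1 with at least 10 reads, and member peaks with an unadjusted p under 0.05 were 2, 7, 10, 1 and 2 with total reads, loess, DESeq2, near a start and in both. H3K27Ac gene calls were 8 with total reads, 120 with loess, 213 with DESeq2 and 100 with the likelihood ratio test, with 2, 1 and 1 members at an unadjusted p under 0.05 with DESeq2, near a start and in both.

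Scaling to total reads moved the median log2 fold change of all genes from 0.02 to 0.27 for Rpb2 and from -0.11 to 0.63 for H3K27Ac. Under it the Rpb2 sums were 0.14 for *Smad3*, 0.22 for *Smad2*, 0.23 for *Skil* and 0.19 for *Tgfb1*, all below that median, and the Rpb2 peaks 0.30 for *Smad4*, 0.25 for *Nrros* and 0.23 for *Tgfb1*. The H3K27Ac sums were 0.075 for *Smad4*, 0.63 for *Skil* and 0.15 for *Smad2*, and the peaks 0.60 for *Skil* and 0.49 for *Smad2*. With loess offsets the H3K27Ac values were -0.15 and -0.10 for the *Smad7* and *Smad3* peaks, -0.037 and -0.050 for the widest *Tgfbr2* and *Tgfbr1* peaks, and -0.064, -0.13, -0.035 and -0.041 for the *Tgfbr2*, *Smad3*, *Tgfbr1* and *Smad7* sums, and the Rpb2 values -0.026 for the *Ski* sum and 0.078, 0.0122 and 0.025 for the *Smad4*, *Nrros* and *Tgfb1* peaks. With at least 10 reads those 3 were 0.075, 0.046 and 0.023, near a start 0.069, 0.039 and 0.018, and for peaks called in both 0.12 for *Smad4* and 0.080 for *Nrros*. Near a start the Rpb2 sums were 0.035 for *Tgfb1* and -0.25 for *Tgfbr2*. For peaks called in both they were -0.20 for *Smad7* and 0.045 for *Skil*, and the H3K27Ac sum of *Smad3* was -0.0073. The *Smad4* Rpb2 sum was -0.0015 with DESeq2 size factors and -0.094 with the newer method.

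Leaving out each library in turn, calls ranged from 0 to 2210 Rpb2 peaks (members 0 to 15, or 6 to 38 at an unadjusted p under 0.05), 0 to 264 Rpb2 genes (members 0, or 0 to 1), 2 to 8157 H3K27Ac peaks (members 0 to 13, or 1 to 24) and 88 to 3807 H3K27Ac genes (members 0 to 6, or 0 to 8), the lone pool being assumed to vary like the other genotype. Rpb2 sums ranged from -0.15 to 0.055 for *Smad2*, -0.34 to 0.054 for *Smad3*, -0.42 to 0.62 for *Smad4*, -0.12 to 0.55 for *Smad7*, -0.25 to 0.073 for *Tgfb1* and -0.077 to 0.44 for *Tgfbr2*, and Rpb2 peaks from -0.18 to 0.00186 for *Nrros*, -0.50 to 0.56 for *Smad4*, -0.96 to 0.0010 for *Smad7*, -0.52 to 0.45 for *Tgfb1* and -0.83 to 0.23 for *Tgfbr2*. H3K27Ac sums ranged from -0.10 to 0.73 for *Nrros*, -0.12 to 0.032 for *Skil*, -0.045 to 0.16 for *Smad3*, -0.18 to 0.51 for *Tgfbr1* and -0.0066 to 0.31 for *Tgfbr2*, and H3K27Ac peaks from -0.027 to 0.73 for *Nrros*, -0.19 to 0.42 for *Smad3*, -0.022 to 0.20 for *Smad7* and -0.10 to 0.53 for *Tgfbr1*. With 2 pools per genotype, only differences well beyond the spread between pools can be told from 0.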
